A study of Mus musculus with 12 samples.

Results

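Dio1, the gene of type 1 deiodinase, was followed in mouse liver together with 6 other genes of thyroid hormone handling: Slc16a10, Serpina7, Ttr, Thra, Thrb and Klf9. These 7 genes, of 23284 in the expression table, were chosen by the measured FPKM of Dio1, which had been lower in livers with human APOA1 in an earlier look at the same libraries, so the genotype values of all 7 are a description and carry no test. Thyroid hormone leaves the thyroid mostly as thyroxine, a prohormone that circulates bound to transport proteins made largely by the liver, among them transthyretin (Ttr) and thyroxine-binding globulin (Serpina7). Membrane transporters pass it across the cell surface, type 1 deiodinase removes iodine from it to form or to clear the active hormone triiodothyronine, and nuclear receptors (Thra, Thrb) carry the signal to target genes such as Klf9 and Dio1 itself. In rodents, hepatic Dio1 mRNA is a classical readout of thyroid hormone action through the beta receptor.

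The study asked how apolipoprotein A-I bears on the liver transcripts of mice that lack apolipoprotein E, on chow or on a high-fat diet. All mice lacked both mouse apolipoprotein genes (genotype Apoa1-/- Apoe-/-, DKO), and the DKO/hA1 mice carried the human APOA1 gene as well. There were 3 DKO/hA1 libraries on Western diet, 2 DKO/hA1 libraries on chow, 3 DKO libraries on Western diet and 4 DKO libraries on chow. Each diet had been fed for 22 weeks. Age, sex, the promoter of the transgene and the thyroid state of the mice are not given in the sources used here, and no group with either mouse apolipoprotein intact is analysed here. The labels number the libraries within each group without saying that each is another animal, so p-values measure the spread between these libraries. Values are FPKM, fragments scaled to transcript length and to the mapped fragments of the library, so levels of different genes can be set side by side. A ± after a mean is the SD over the libraries of that group, and a ± after a log2 fold change is its SE.

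The libraries were liver by their markers: the 10 tested hepatocyte genes summed to between 9105 and 16110 FPKM in every library, and 4 genes of the thyroid follicle (Tg, Slc5a5, Tshr and Pax8) stayed under 1 FPKM in all 12. Albumin (Alb) was listed at 0 in all but the DKO Western diet libraries and was not used. Absolute depth is unknown, and relative depth estimated from low values ran between 0.514 and 1.31 of DKO chow replicate 1. The mouse Apoa1 row held 122 to 240 FPKM in the DKO/hA1 libraries and 30.4 to 77.4 FPKM in the DKO libraries, and the Apoe row held 12.9 to 89.8 FPKM over all 12, so neither knockout left its row at 0. Which bases were deleted is not given in the sources used here, so these rows do not check the knockouts. The Apoa1 row did lie higher in every DKO/hA1 library than in any DKO library. Whether reads of human APOA1 entered that row was not tested. DKO/hA1 Western diet replicate 3 and DKO Western diet replicate 2 stood apart by their neutrophil markers, which summed to 4476 and 4218 FPKM, against 27.9 to 1358 FPKM in the other 10 libraries. DKO/hA1 chow replicate 2 and DKO chow replicate 2 were lowest in macrophage markers (244 and 324 FPKM summed, against 610 to 2316 FPKM in the other 10) and in endothelial markers (36.6 and 41.1 FPKM, against 52.1 to 122 FPKM).

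Dio1 lies on the minus strand at chr4:107291465-107307168 (mm10, GRCm38) and its 4-exon transcript of 1690 bases encodes a selenoprotein. The stretch of coding sequence shown here, 63 bases of exon 2 at chr4:107297670-107297732 from the GENCODE annotation of that build, holds in capitals the in-frame TGA, codon 126 of 257, which the ribosome reads as selenocysteine, the residue of the active site. It is shown because this codon ties the enzyme to the selenium machinery described further on.
Dio1 coding stretch: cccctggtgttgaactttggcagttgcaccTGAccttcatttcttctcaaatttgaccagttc
For Dio1 and Serpina7, the 2 members with the largest diet log2 fold changes within a genotype, the 250 bases before a RefSeq start (GRCm38.p6) are also shown. RefSeq lists 2 starts for Serpina7, and the window of the more downstream one is given, a choice made after both had been searched. The Dio1 window lies at chr4:107307169-107307418 on the minus strand, and the Serpina7 window at chrX:139085220-139085469 on the minus strand. Each was searched on both strands for AGGTCA, the core of many nuclear receptor sites, GGGCGG, a GC box, and TATAAA, the TATA box, and no match overlapped another; the match found is in capitals.
Dio1 upstream: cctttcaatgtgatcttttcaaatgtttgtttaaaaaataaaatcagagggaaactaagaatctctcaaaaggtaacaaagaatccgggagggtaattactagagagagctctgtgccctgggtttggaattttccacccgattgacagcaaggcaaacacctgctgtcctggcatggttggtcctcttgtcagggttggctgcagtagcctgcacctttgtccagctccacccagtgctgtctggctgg
Serpina7 upstream: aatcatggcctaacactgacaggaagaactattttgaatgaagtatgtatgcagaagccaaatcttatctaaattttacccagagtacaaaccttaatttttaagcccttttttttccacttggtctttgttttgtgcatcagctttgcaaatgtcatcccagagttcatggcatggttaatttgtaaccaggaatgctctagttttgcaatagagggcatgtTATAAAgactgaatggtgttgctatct
The Dio1 window held none of these motifs, and the Serpina7 window held TATAAA 27 bases before the start; from the other Serpina7 start the same match lies 10 bases upstream. Of the 32544 mouse windows of the same length, 14.0% held AGGTCA, 33.0% held GGGCGG and 12.3% held TATAAA. GC content was 46.8% for Dio1 and 36.4% for Serpina7, against a median of 52.4% over all windows.

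Dio1 was lowest in the DKO/hA1 livers on chow and highest in the DKO livers on Western diet. It stood at 83.8, 96.2 and 58.0 FPKM in DKO/hA1 on Western diet and at 17.7 and 26.3 FPKM in DKO/hA1 on chow. DKO livers had 99.5, 101 and 127 FPKM on Western diet and 85.6, 57.6, 58.5 and 64.7 FPKM on chow. The group means were 79.3 ± 19.5 FPKM (DKO/hA1 Western diet, n = 3), 22.0 ± 6.1 FPKM (DKO/hA1 chow, n = 2), 109 ± 15.2 FPKM (DKO Western diet, n = 3) and 66.6 ± 13.0 FPKM (DKO chow, n = 4). Both DKO/hA1 chow libraries lay below every other library, and in the order of the means only DKO/hA1 on Western diet and DKO on chow overlapped.

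The genotype difference, the measure that chose the gene, is given without a test. The log2 fold change of DKO/hA1 over DKO was -1.59 ± 0.23 on chow and -0.44 ± 0.22 on Western diet, with non-overlapping groups on both. With libraries scaled to equal totals, which moved the median over all genes to 0.16, the Western diet value was -0.23. Leaving out DKO/hA1 Western diet replicate 3 gave -0.24, and leaving out both libraries that stood apart by neutrophil markers gave -0.28. Across the liver, 21.6% of the 11548 genes tested had non-overlapping genotype groups on chow and 9.54% on Western diet. Among the members these were 5 on chow (Dio1, Thrb, Slc16a10, Serpina7 and Ttr) and 3 on Western diet (Dio1, Thrb and Slc16a10). These counts are of FPKM as deposited. After the scaling used in the fit, the same 5 were without overlap on chow (21.7% of all genes) and only Dio1 on Western diet (9% of all genes), where its highest DKO/hA1 and its lowest DKO library both stood at 95.8 scaled FPKM. By the adjusted test, 0.0779% of all genes were called for genotype on chow (9 genes). On Western diet the call was 0% (0 genes by limma, 675 at an unadjusted p below 0.05), and for genotype averaged over diets it was 0.113% (13 genes). The mean on chow rests on 2 DKO/hA1 libraries: the log2 fold change was -1.30 without DKO/hA1 chow replicate 1 and -1.86 without replicate 2. The labels give each library a code whose meaning is not stated. Its middle number was 41 to 49 in the Western diet libraries and 54 to 59 in the chow libraries. A shift between low and high numbers thus cannot be told apart from diet. Both DKO/hA1 chow libraries carry 57, as does DKO chow replicate 3, so the pair may not be independent. Among libraries that share the number, Dio1 was 17.7 and 26.3 FPKM in DKO/hA1 against 58.5 FPKM in DKO on chow. On Western diet it was 83.8 FPKM in DKO/hA1 against 99.5 FPKM in DKO.

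Dio1 was higher on Western diet, and was called in the test averaged over genotypes but not within DKO livers alone. Averaged over the genotypes, the log2 fold change of Western diet over chow was 1.21 ± 0.16, a fold of 2.32 on the log2(FPKM + 1) scale, with an adjusted p of 0.0055 by limma over all genes tested. The exact two-sided permutation of the diet labels within genotype gave p = 0.00286, the smallest that its 350 relabellings allow. Every Western diet library lay above every chow library of its own genotype. Dio1 was the only member called of 7, where 3.95% of all genes were called for diet (456 genes, 318 higher and 138 lower). That count was 39 with the code number of the labels as a block and 33 without DKO/hA1 chow replicate 2, and Dio1 was called in both (adjusted p = 0.0397 and 0.0117 by limma). Scaling the libraries to equal totals instead turned the split of all genes to 181 higher and 240 lower, with a median over all genes of -0.14. Dio1 kept its direction and its call under all 22 alternative settings, with log2 fold changes between 1.06 and 1.35 and adjusted p between 0.00165 and 0.0397 (1.19 without DKO chow replicate 2). The estimate is not wholly free of the choice of the gene, since both use the DKO/hA1 chow libraries. By design it has a correlation of -0.243 with the estimate for genotype on chow, so a low genotype value goes with a high diet value. The p-values and the calls under the 22 alternatives carry that choice as well. No code number of the labels occurs on both diets, so code and diet cannot be told apart.

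Within DKO livers, which hold no DKO/hA1 library, Dio1 was not called. The log2 fold change was 0.64 ± 0.20 with an adjusted p of 0.265 by limma, where 0.113% of all genes were called (13 genes). The exact permutation p was 0.0571, and 35 relabellings allow no p below 0.0286. By design this estimate has a correlation of 0.378 with that for genotype on chow, so a low genotype value goes with a low diet value. The groups did not overlap. In DKO livers 2 members, Dio1 and Serpina7, had non-overlapping diet groups, where 13.6% of all genes did. In DKO/hA1 livers 3 members, Dio1, Slc16a10 and Ttr, did, where 30.3% of all genes did. Within DKO/hA1 livers the log2 fold change of Dio1 was 1.79 ± 0.24, where 1.32% of all genes were called (152 genes), and the difference between the diet effects, DKO/hA1 minus DKO, was 1.14 ± 0.31 on the log2 scale. Both rest on the 2 chow libraries that chose the gene and are given without a test. The genotype gap on Western diet was therefore smaller than on chow by the same amount.

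**Figure D1:**
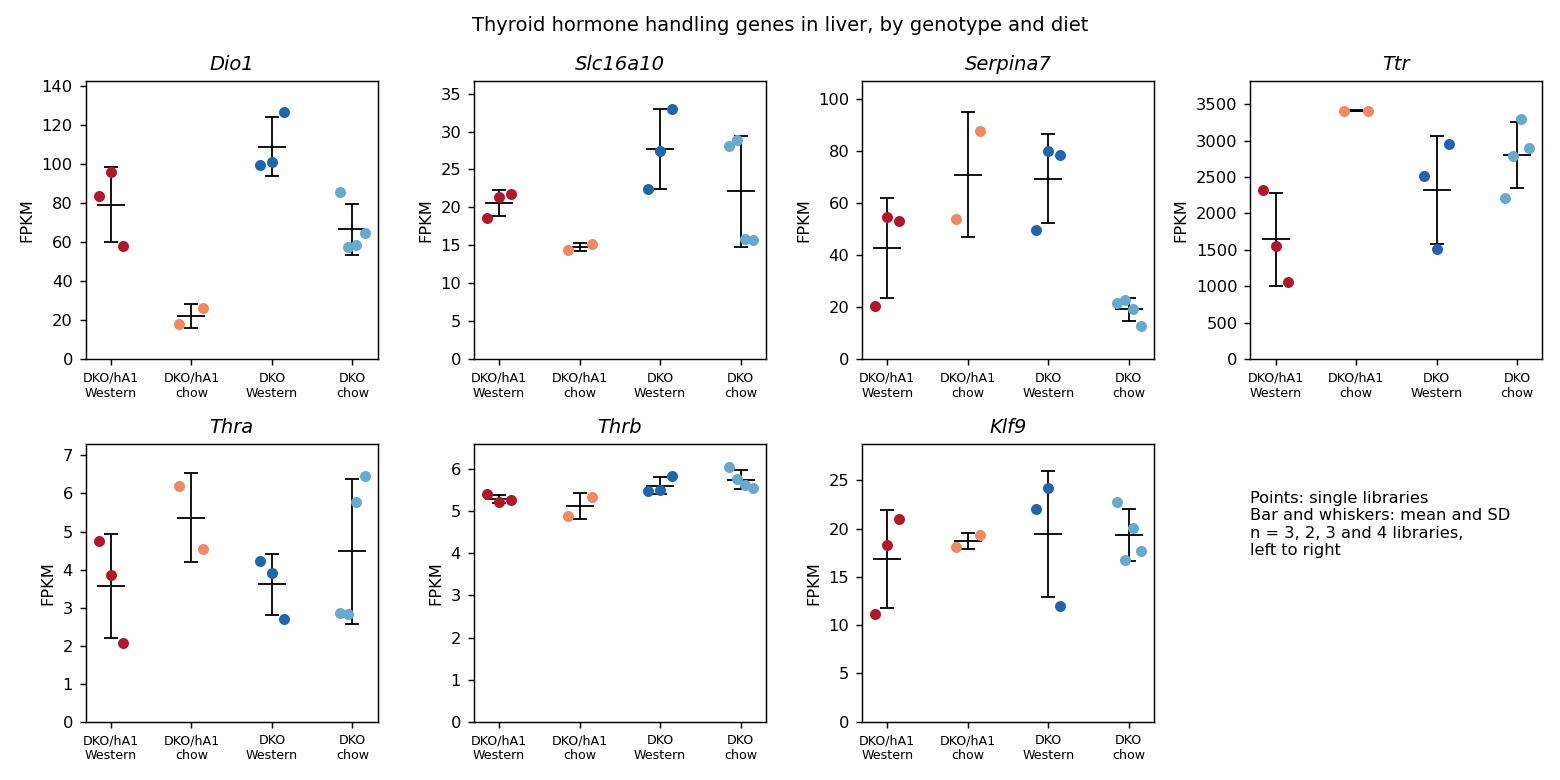
FPKM (vertical axis, from 0) of the 7 genes in each library (points) of the 4 groups (horizontal axis), with the mean as a bar and the SD as whiskers (n = 3, 2, 3 and 4, left to right). Dio1 was at 17.7 and 26.3 FPKM in the DKO/hA1 chow libraries, below all others, and Serpina7 was at 12.8 to 22.6 FPKM in the DKO chow libraries.

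Dio1 was the only deiodinase to reach 1 FPKM. Dio2, which forms triiodothyronine in brown fat, pituitary and brain, and Dio3, which inactivates the hormone, were under 1 FPKM in all 12 libraries. The highest values were 0.105 FPKM for Dio2 and 0.0397 FPKM for Dio3.

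Slc16a10, at chr10:40033532-40142270 on the minus strand, encodes the amino acid transporter MCT10, which also carries iodothyronines. It stood at 18.6, 21.4 and 21.7 FPKM in DKO/hA1 on Western diet and at 14.4 and 15.2 FPKM in DKO/hA1 on chow. The DKO libraries held 22.5, 27.5 and 33.0 FPKM on Western diet and 28.0, 28.9, 15.9 and 15.7 FPKM on chow. The DKO/hA1 values lay below the DKO values on both diets in deposited FPKM, while after scaling the groups overlapped on Western diet (up to 21.9 scaled FPKM in DKO/hA1, against 21.6 scaled FPKM in the lowest DKO library). On chow the DKO libraries split into a high and a low pair. The log2 fold change for diet averaged over genotypes was 0.36 ± 0.18, which was not called (adjusted p = 0.298 by limma, exact permutation p = 0.0686). For genotype, described only, it was -0.52 ± 0.26 on chow (-0.28 with the code number as a block) and -0.36 ± 0.24 on Western diet (-0.16 with equal totals, -0.24 without DKO Western diet replicate 3).

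Of the 10 tested genes of thyroid hormone transport, 1 was called for diet averaged over genotypes, and its direction was down. It was Slco1a4, an organic anion transporter of the sinusoidal membrane that also takes up iodothyronines. Slco1a4 stood at 3.80, 3.34 and 1.04 FPKM in DKO/hA1 on Western diet and at 11.0 and 8.44 FPKM in DKO/hA1 on chow. The values in DKO livers were 1.82, 0.765 and 1.50 FPKM on Western diet and 14.7, 20.3, 6.35 and 11.0 FPKM on chow. Neither genotype's diet groups overlapped, and the log2 fold change was -2.09 ± 0.30 (adjusted p = 0.00773 by limma, 0.0501 without DKO/hA1 chow replicate 2, and 0.00437 to 0.0501 over the 22 alternatives). The most abundant transporters were not called: the log2 fold change for diet was 0.17 ± 0.19 for Slco1b2, 0.17 ± 0.20 for Slc10a1 and -1.23 ± 0.49 for Slco1a1. The median over the 10 was 0.12, against -0.01 over all genes.

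Serpina7, at chrX:139079249-139085236 on the minus strand, was low in the DKO livers on chow and higher in the 3 other groups but for 1 library. It stood at 20.5, 54.5 and 53.0 FPKM in DKO/hA1 on Western diet and at 54.0 and 87.9 FPKM in DKO/hA1 on chow. In DKO livers the levels were 49.6, 79.9 and 78.6 FPKM on Western diet and 21.7, 22.6, 19.4 and 12.8 FPKM on chow. The DKO chow libraries overlapped only with DKO/hA1 Western diet replicate 1, at 20.5 FPKM. Thyroxine-binding globulin binds thyroxine more tightly than the other plasma carriers, and in rats its hepatic expression is known to vary with age and thyroid state.

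In DKO livers the log2 fold change of Serpina7 for diet was 1.73 ± 0.35, without overlap between the diets and with the smallest exact permutation p that 35 relabellings allow, 0.0286. Over all genes it was not called (adjusted p = 0.148 by limma). It was called without DKO/hA1 Western diet replicate 1 (1.73 ± 0.25, adjusted p = 0.0356, within 0.0356 to 0.468 over the 22 alternatives), a library outside the DKO groups that enters through the shared estimate of spread. In DKO/hA1 livers the log2 fold change was -0.81 ± 0.42 (adjusted p = 0.441 by limma), with overlapping groups. The difference between these diet effects, DKO/hA1 minus DKO, was -2.55 ± 0.55 and was not called (adjusted p = 0.714 by limma), where 0.0173% of all genes were called (2 genes). For genotype, described only, the log2 fold change was 1.80 ± 0.40 on chow and -0.75 ± 0.38 on Western diet, and the Western diet value was -0.29 without DKO/hA1 Western diet replicate 1, the library at 20.5 FPKM. On chow Serpina7 was thus higher in DKO/hA1 than in DKO livers, and Dio1 was lower.

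Ttr, the gene of the plasma carrier of thyroxine and of retinol-binding protein, was the most abundant member. It stood at 2320, 1555 and 1052 FPKM in DKO/hA1 on Western diet and at 3407 and 3414 FPKM in DKO/hA1 on chow. DKO livers stood at 2509, 1505 and 2950 FPKM on Western diet and at 2209, 2794, 3298 and 2899 FPKM on chow. Both DKO/hA1 chow libraries lay above all others, and the diet groups overlapped in DKO livers but not in DKO/hA1 livers. Averaged over genotypes the log2 fold change for diet was -0.76 ± 0.23, which was not called over all genes (adjusted p = 0.0878 by limma), while the exact permutation p for this gene alone was 0.0314. That p was 0.0514 without scaling, 0.08 without DKO Western diet replicate 2, 0.0571 without either DKO/hA1 chow library, 0.06 without DKO chow replicate 3 and 0.05 without DKO chow replicate 2 or 4. Ttr was called without DKO/hA1 Western diet replicate 1 (-0.90 ± 0.21, adjusted p = 0.0377, within 0.0377 to 0.275 over the 22 alternatives). Transthyretin is a negative acute-phase protein, and the lowest Ttr library of each Western diet group, at 1052 FPKM in DKO/hA1 and 1505 FPKM in DKO, was the one highest in neutrophil markers. The part of that response in the result was not tested. Leaving out both libraries, the log2 fold change was -0.48 ± 0.16 and the exact permutation p was 0.111. The FPKM of Ttr was 18.8 to 113 times that of Serpina7 in the 3 other groups and 102 to 226 times in the DKO chow libraries.

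**Figure D2:**
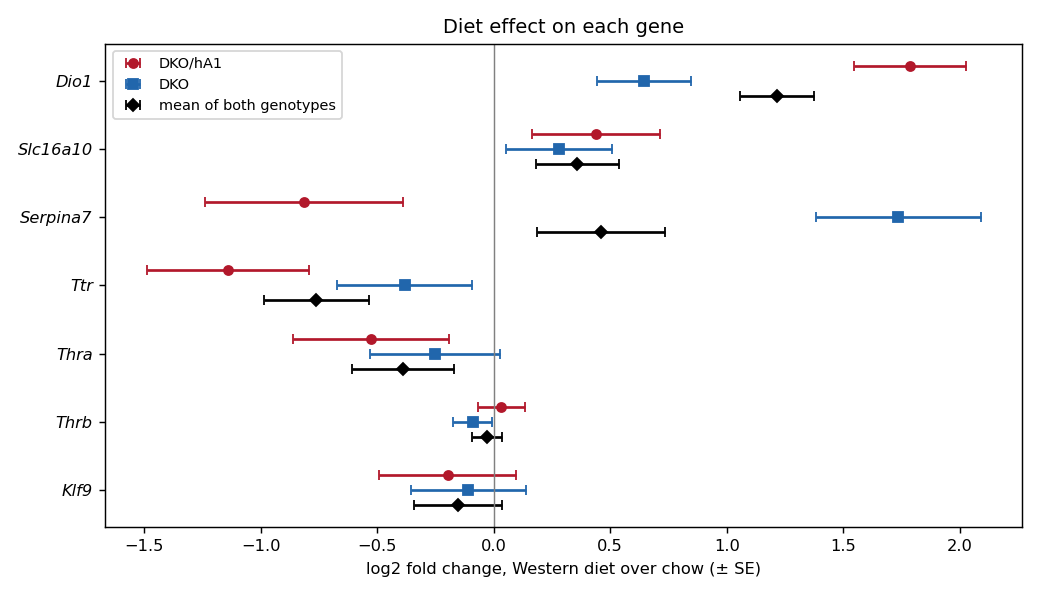
Log2 fold change of Western diet over chow (horizontal axis) for each of the 7 genes (vertical axis), in DKO/hA1 livers, in DKO livers and as the mean of both genotypes, with the SE as whiskers. Dio1 was above 0 in both genotypes (1.79 and 0.64), and Serpina7 was at -0.81 in DKO/hA1 and 1.73 in DKO livers.

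Thrb, at chr14:17659225-18040097 on the plus strand, is the receptor that carries most of the hormone's action in hepatocytes, and ranged from 4.90 to 6.05 FPKM over the 12 libraries. Thrb stood at 5.41, 5.22 and 5.26 FPKM in DKO/hA1 on Western diet and at 4.90 and 5.34 FPKM in DKO/hA1 on chow. In DKO livers it stood at 5.48, 5.51 and 5.84 FPKM on Western diet and at 6.05, 5.77, 5.61 and 5.56 FPKM on chow. The DKO/hA1 values lay below the DKO values on both diets in deposited FPKM but overlapped with them on Western diet after scaling, and the log2 fold change was -0.16 ± 0.09 on chow and -0.04 ± 0.09 on Western diet. On Western diet the sign of that change depends on the scaling, and it was 0.14 with equal totals. For diet averaged over genotypes the log2 fold change was -0.03 ± 0.06 (adjusted p = 0.854 by limma), with a 95% interval of -0.16 to 0.10.

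Thra, the other receptor gene, at chr11:98740776-98769006 on the plus strand, overlapped between the diets within each genotype and between the genotypes within each diet. Thra stood at 4.75, 3.86 and 2.07 FPKM in DKO/hA1 on Western diet and at 6.20 and 4.54 FPKM in DKO/hA1 on chow. The DKO libraries stood at 4.21, 3.92 and 2.69 FPKM on Western diet and at 2.87, 2.82, 5.79 and 6.45 FPKM on chow. The log2 fold change for diet averaged over genotypes was -0.39 ± 0.22 (adjusted p = 0.36 by limma). The last exon of the longest Thra transcript overlaps Nr1d1, a clock gene on the opposite strand, by 263 of its 2452 bases (10.7%, chr11:98768157-98768419). Whether counting used the strand is not given in the sources used here, so reads of the 2 genes in that stretch cannot be told apart.

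The split of the DKO chow libraries in Thra and Slc16a10 went with the clock genes. A clock index was formed by subtracting the mean log2 level of the Dbp arm from that of the Arntl arm. It lay between -2.59 and -0.65 in all 6 Western diet libraries and was 0.10 and 0.60 in the DKO/hA1 chow libraries. The index was -2.78 and -2.73 in DKO chow replicates 1 and 2, and 0.77 and 0.42 in replicates 3 and 4. Thra was at 2.87 and 2.82 FPKM in the first pair and at 5.79 and 6.45 FPKM in the second, and Slc16a10 was at 28.0 and 28.9 FPKM in the first pair and at 15.9 and 15.7 FPKM in the second. The Western diet libraries did not keep this order. The highest indices there, -0.97 and -0.65, were in replicate 3 of DKO/hA1 and of DKO. Thra was lowest in these, at 2.07 and 2.69 FPKM, against 3.86 to 4.75 FPKM in the other Western diet libraries. Slc16a10 was 21.7 and 33.0 FPKM in these, against 18.6 to 27.5 FPKM in the others. None of the 5 tested genes of the Arntl arm and none of the 8 of the Dbp arm was called for diet by limma, with 1 and 2 at an unadjusted p below 0.05. The part of the clock in the results on Thra, Slc16a10 and Dio1 was not tested. Dio1 was 17.7 and 26.3 FPKM in DKO/hA1 on chow, against 58.5 and 64.7 FPKM in DKO chow replicates 3 and 4, the DKO chow libraries with an index above 0, and 57.6 to 85.6 FPKM over the whole DKO chow group.

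**Figure D3:**
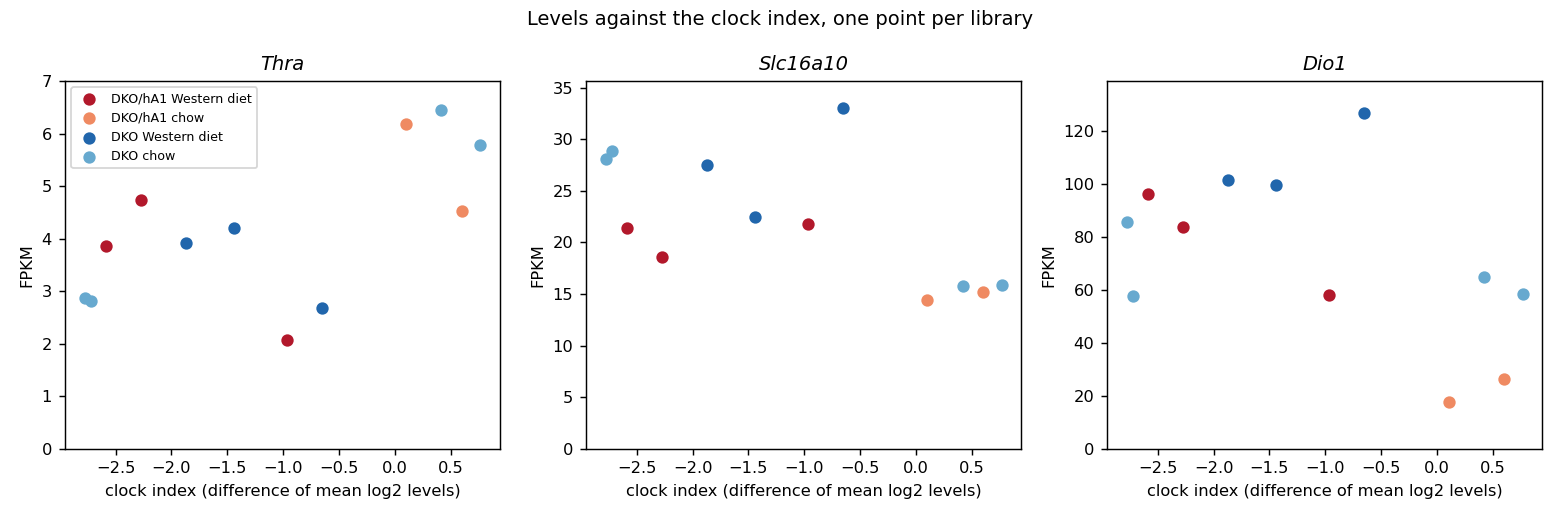
FPKM of Thra, Slc16a10 and Dio1 (vertical axes, from 0) against the clock index (horizontal axis, difference of mean log2 levels), 1 point per library. DKO chow libraries lie at both ends of the index, and at the high end Dio1 was 17.7 and 26.3 FPKM in DKO/hA1 chow livers and 58.5 and 64.7 FPKM in DKO chow livers.

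None of the 5 receptors and partners was called for diet by limma, and none had an unadjusted p below 0.05. Rxra, the partner of the thyroid hormone receptors in hepatocytes, was the most abundant at 95.4 ± 9.4 FPKM in DKO/hA1 on Western diet and 74.1 ± 7.4 FPKM in DKO/hA1 on chow, and at 104 ± 8.4 FPKM in DKO on Western diet and 92.0 ± 14.3 FPKM in DKO on chow. Of 12 receptor cofactors, 0 were called by limma and 1 had an unadjusted p below 0.05. Among the most abundant of them the log2 fold change was -0.01 ± 0.09 for Hdac3, a corepressor deacetylase, -0.08 ± 0.09 for Ncor1, its platform, and -0.26 ± 0.12 for Tbl1x.

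Klf9, at chr19:23141226-23168129 on the plus strand, a Krueppel-like factor induced by both thyroid hormone and glucocorticoids, overlapped across all groups. Klf9 stood at 11.2, 18.3 and 21.0 FPKM in DKO/hA1 on Western diet and at 18.1 and 19.3 FPKM in DKO/hA1 on chow. DKO livers were at 22.0, 24.2 and 12 FPKM on Western diet and at 22.7, 16.7, 20.1 and 17.7 FPKM on chow. The log2 fold change for diet averaged over genotypes was -0.15 ± 0.19 (adjusted p = 0.713 by limma). Of the 8 glucocorticoid-induced genes, Klf9 included, 0 were called for diet by limma and 1 had an unadjusted p below 0.05: Tat had a log2 fold change of -0.06 ± 0.29, Mt2 had 3.74 ± 1.14 and Tsc22d3 had 0.44 ± 0.24. Of the 12 tested Krueppel-like factors 0 were called and none had an unadjusted p below 0.05, and Klf15 and Klf3 had 0.19 ± 0.12 and 0.04 ± 0.15. The Pearson correlation of Klf9 with Dio1 over the 12 libraries was -0.16, a description over libraries that share group and depth.

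Of 14 genes that thyroid hormone is known to induce in liver, 13 were tested. For diet averaged over genotypes 1 was called, Dio1 itself, where 3.95% of all genes were called. That call uses the DKO/hA1 chow libraries that chose the gene, and in DKO livers alone 0 of the 13 were called. Averaged over genotypes, 4 of the 13 had an unadjusted p below 0.05 by limma, as had 2261 of the 11548 genes. The median log2 fold change of the 13 was -0.16. Thrsp, a lipogenic nuclear protein, had a log2 fold change of 0.83 ± 0.56, and Me1, malic enzyme, had -0.84 ± 0.44. Bcl3 had 0.65 ± 0.18 (adjusted p = 0.0713 by limma) and Pdk4, which restrains pyruvate oxidation, had -1.15 ± 0.32 (adjusted p = 0.0747 by limma). Of the 11 of these genes that are no members, none was called for genotype, with 1 unadjusted p below 0.05 on chow and none on Western diet. On chow 6 of the 11 had a log2 fold change above 0 and 5 below, with a median of 0.05, and on Western diet 4 were above and 7 below, with a median of -0.04. Thyroid hormone levels are not analysed here.

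**Figure D4:**
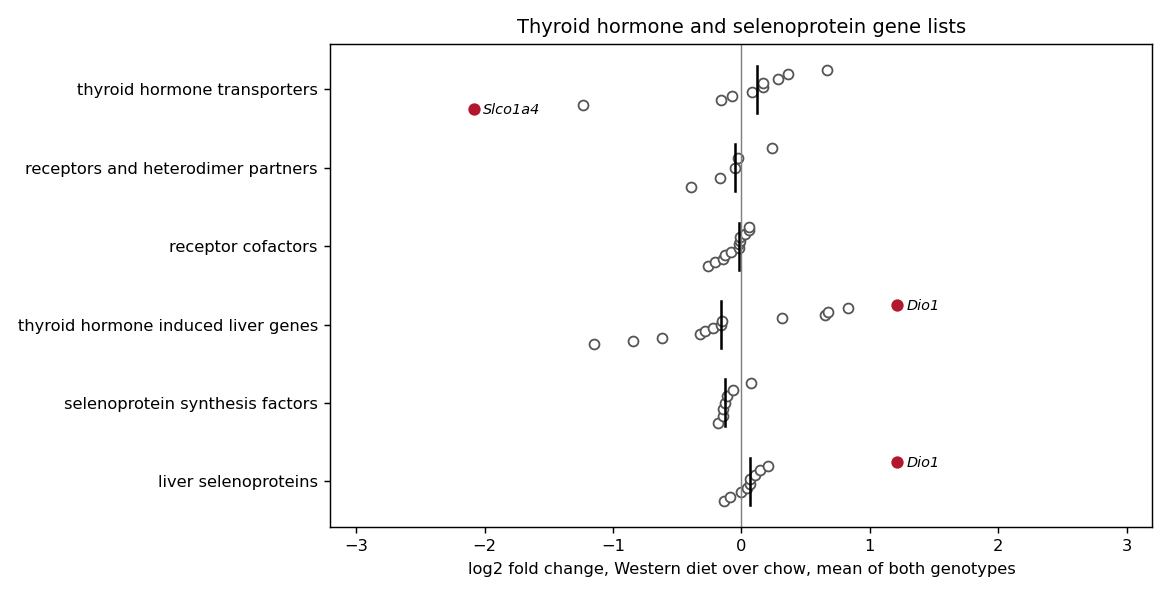
Log2 fold change of Western diet over chow, averaged over genotypes (horizontal axis), for the tested genes of 6 lists (vertical axis). Filled points passed the adjusted test and bars are list medians. Dio1 (1.21) was the only gene called among the induced genes and the selenoproteins, and Slco1a4 (-2.09) the only transporter. The DKO/hA1 chow libraries that chose Dio1 enter its value.

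Selenoproteins share the selenium supply and the decoding factors that Dio1 needs. Of 10 tested selenoprotein genes, Dio1 was the only one called for diet averaged over genotypes, where 3.95% of all genes were called. That call uses the DKO/hA1 chow libraries that chose the gene, and in DKO livers alone 0 of the 10 were called. Averaged over genotypes, the median log2 fold change of the 10 was 0.07. Sepp1, the plasma selenium carrier, had a log2 fold change of 0.07 ± 0.16, Gpx1 had 0.14 ± 0.16 and Gpx4 had 0.00 ± 0.14. For genotype averaged over diets, none of the 9 selenoproteins other than Dio1 was called by limma, while 7 had a log2 fold change below 0 and 4 had an unadjusted p below 0.05 (926 of the 11548 genes had one), with a median of -0.10. The 4 were Gpx1 (-0.41 ± 0.16), Sepx1 (-0.32 ± 0.13), Txnrd2 (-0.27 ± 0.11) and Sepw1 (-0.25 ± 0.10). On Western diet all 9 were below 0, with 1 unadjusted p below 0.05, and on chow 5 were, with 3. The Western diet median of the 9 was -0.16, about the size by which equal totals moved the median over all genes. Their signs under equal totals were not tested. Of 7 genes that make or decode selenocysteine, 0 were called by limma and none had an unadjusted p below 0.05. Among them Sephs2, which makes the selenium donor, had -0.14 ± 0.16, Sepsecs had -0.13 ± 0.11, Trnau1ap had 0.08 ± 0.09 and Eefsec had -0.06 ± 0.09.

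The enzymes that clear iodothyronines by conjugation included 1 strong change. Ugt1a9, a glucuronosyltransferase, stood at 6.39, 10.1 and 9.33 FPKM in DKO/hA1 on Western diet and at 38.3 and 47.4 FPKM in DKO/hA1 on chow. DKO livers held 2.40, 4.05 and 6.10 FPKM on Western diet and 24.7, 23.7, 25.8 and 23.1 FPKM on chow. Every Western diet library lay below every chow library, with a log2 fold change of -2.31 ± 0.17 averaged over genotypes (adjusted p = 6.1e-05 by limma). Genes of the Ugt1a family share their last exons, so how the authors' counting divided those reads is uncertain. Ugt1a1, which conjugates bilirubin and thyroxine, had a log2 fold change of -0.14 ± 0.23, Sult1a1 had 0.15 ± 0.21 and Sult1b1 had -0.57 ± 0.22, and none of these 3 was called.

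Markers of other cell types moved with diet beside these results. Of 13 macrophage and Kupffer cell markers, 8 were called higher for diet averaged over genotypes (Cd68, Cd5l, Vsig4, C1qa, C1qb, C1qc, Lyz2 and Mpeg1). The list summed to 1511 to 2316 FPKM in DKO/hA1 on Western diet and 244 to 610 FPKM in DKO/hA1 on chow. In DKO livers it summed to 1020 to 1349 FPKM on Western diet and to 324 to 751 FPKM on chow. Of 18 acute-phase genes, 5 were called higher (Saa1, Saa2, Saa3, Orm2 and Lcn2). Of 10 neutrophil markers 1 was called, Lcn2, which is in both lists. All 13 macrophage, 14 of the acute-phase and all 10 neutrophil genes had an unadjusted p below 0.05 by limma, as had 2261 of the 11548 genes. Every tested gene of these lists had a log2 fold change above 0. The acute-phase list summed to 14529 to 135380 FPKM in DKO/hA1 on Western diet and 16725 to 21582 FPKM in DKO/hA1 on chow, and to 33651 to 157670 FPKM in DKO on Western diet and 11162 to 18221 FPKM in DKO on chow. The neutrophil list summed to 106 to 4476 FPKM in DKO/hA1 on Western diet and 38.4 to 75.3 FPKM in DKO/hA1 on chow, and to 499 to 4218 FPKM in DKO on Western diet and 27.9 to 88.4 FPKM in DKO on chow. None of the 10 hepatocyte markers was called by limma, with 3 at an unadjusted p below 0.05. Markers of T and NK cells (4 tested), B cells (2), endothelium (6), stellate cells (7), cholangiocytes (3) and red blood cells (3) had no call by limma, with 4 unadjusted p below 0.05 among these 25 genes. Fewer hepatocytes and less RNA per hepatocyte cannot be told apart in whole liver. The part of these cells in the Dio1 result was not tested. Without the 2 libraries highest in neutrophil markers, the log2 fold change of Dio1 for diet averaged over genotypes was 1.34 ± 0.15 (adjusted p = 0.00448 by limma). That estimate still uses the DKO/hA1 chow libraries that chose the gene. In DKO livers alone, with the same libraries left out, it was 0.68 ± 0.20 and was not called (adjusted p = 0.269 by limma).

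The genes whose levels were most like those of Dio1 over the 12 libraries, among 6561 with a mean of at least 5 FPKM, were Smpd2 (Pearson r = 0.95), a sphingomyelinase, 1810055G02Rik (0.93), Atp6v0b (0.92), a proton pump subunit, Prelid1 (0.91), a mitochondrial lipid carrier, Cyp2d40 (0.91), a cytochrome P450, and Mup5 (0.90), a major urinary protein. The most unlike were Nrd1 (-0.94), Gtf3c6 (-0.92) and Ddx17 (-0.92). These are descriptions over 12 libraries that share groups and depth, and the low DKO/hA1 chow pair weighs in each. Smpd2 stood at 12.4 and 13.0 FPKM in DKO/hA1 on chow and at 16.1 to 21.8 FPKM in the other 10 libraries. Mup5 was at 2.70 and 2.84 FPKM in DKO/hA1 on chow and between 329.6 and 3048 FPKM in the other 10 libraries, but members of that family are nearly identical and how reads were divided among them is uncertain. By Spearman's rank correlation 1 of the 6 genes remained among the top 6. Of the other members, Slc16a10 came nearest to Dio1 (r = 0.68, rank 233).

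**Figure D5:**
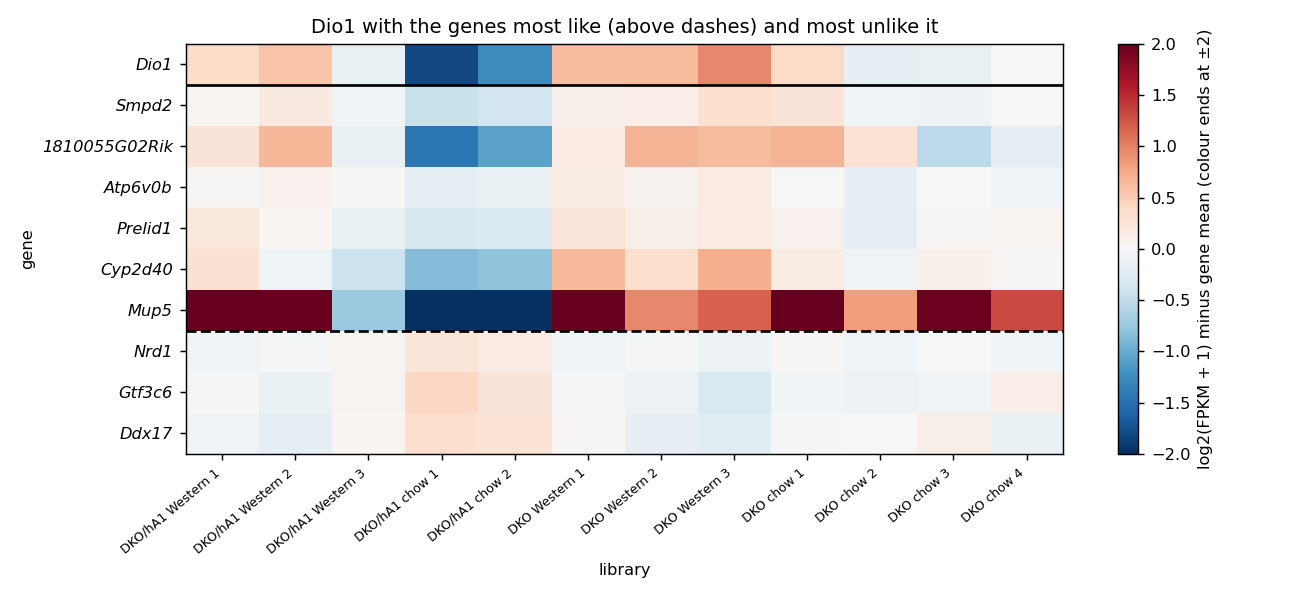
Log2(FPKM + 1) minus the gene's mean over the 12 libraries (colour, ending at ±2) for Dio1, the 6 genes most like it and the 3 most unlike it (rows), by library (columns). The 2 DKO/hA1 chow columns are the lowest for Dio1 and Mup5 (Mup5 at 2.70 and 2.84 FPKM).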

How the data were processed

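Liver RNA of 12 libraries was sequenced. Samples whose RNA integrity number was under 7 had been left out, per the labels. Per the submitters' processing notes, the authors used Bowtie 0.12.8, TopHat 1.3.2, SAMtools 0.1.19, Cuffdiff and mouse build mm10. The Cuffdiff version, the annotation and strand handling are not given in the sources used here. The authors deposited FPKM values, although the table is named for counts, so the test planned for counts was replaced by limma.

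Of 23284 genes, 780 small RNAs were left out. So were 22 genes listed at 0 throughout a group but at 1 FPKM or more in every library of another group. A further 10934 did not reach 1 FPKM in 2 libraries. The other 11548 were scaled by a trimmed mean of log ratios without weights (trims of 0.3 and 0.05), and log2(FPKM + 1) was fitted with R 4.3.3 and limma 3.58.1 (trended, robust, 4 groups, 1 shared spread). Two-sided p-values were adjusted by Benjamini-Hochberg over the 11548 genes, and those below 0.05 were called. A fold change on this scale understates the change of low genes. The fit was tested on simulated data. Python 3.11.15, pandas 2.3.3, numpy 2.4.6 and matplotlib 3.10.9 did the rest.

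The members, the lists and the genes left out were chosen with earlier results of these data known. Named genes were the 7 members, list genes called, 6 most like and 3 most unlike Dio1, and up to 4 of the most abundant genes of a list with no call. Genes that were not called but are named from lists with a call, and the selenoproteins named for genotype, fall outside that rule and were chosen after their values were seen. Some genes of the lists are not reported here. The use of the clock index, the code numbers, the Thra overlap, the permutation within 1 genotype and the sequences shown was decided after the fits were seen. Alternatives covered scaling, the value added before the log2 (0.1), the level filter (none or 5 FPKM), the variance model, replicate number or code number as a block, and leaving out libraries. Same-numbered libraries of different groups did not deviate together (r between -0.28 and 0.44 over 15 pairs), so the numbers were not taken as pairs. Libraries that share a code number had a consensus correlation of 0.566 over all genes in the fit with that number as a block (r between -0.069 and 0.44 over the 3 pairs of different groups). What the code stands for is not given, so that fit is an alternative.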

Additional observations from a re-analysis of the deposited data

Results flagged for a closer look

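Of 31 genes checked in the DKO chow group (the other groups are too small for the check), 5 had a library far from the other 3, and chance gives about 1 in 20. All 5 are in the same library, DKO chow replicate 2, so they are not independent. Saa3 was highest there at 30.4 FPKM, and the macrophage markers Cd68 (5.41 FPKM), Cd5l (69.7 FPKM), Vsig4 (10.5 FPKM) and C1qb (24.2 FPKM) were lowest. The macrophage list summed to 324 FPKM in it, against 697 to 751 FPKM in the other 3 DKO chow libraries. None of the 7 thyroid hormone genes had one. Mup5, which resembled Dio1 over the libraries, had a diet effect difference (DKO/hA1 minus DKO) of 8.52 on the log2 scale by limma's interaction term. The low DKO/hA1 chow pair weighs both in that resemblance, by which Mup5 was chosen, and in this difference. The value is therefore given without a test. Other genes of the Mup family were among those left out before the fit, and how reads were divided within the family is uncertain.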

How the results depend on the processing

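Dio1 was called for diet averaged over genotypes under all 22 alternatives, and no alternative called it for diet in DKO (0.42 to 0.76 on the log2 scale, adjusted p 0.111 to 0.601 by limma). Without scaling, Thrb for averaged diet reversed to 0.0064 (permutation p 0.83). Equal totals reversed Thrb in DKO/hA1 to -0.039 and the Klf9 interaction to 0.038. The code number as a block reversed Klf9 in DKO to 0.024 and the Slc16a10 interaction to -0.042. Leaving out 1 library each gave -0.027 (without DKO/hA1 chow replicate 1) to 0.089 for Thrb in DKO/hA1, -0.38 to 0.064 (DKO/hA1 Western diet replicate 1 left out) for Klf9 in DKO/hA1, -0.30 to 0.19 (DKO Western diet replicate 3 left out) for Klf9 in DKO, -0.39 to 0.17 for the Klf9 interaction, and -0.0063 (DKO chow replicate 2 left out) to 0.30 for the Slc16a10 interaction. Without the 2 libraries highest in neutrophil markers the Thra interaction reversed to 0.047. For averaged diet, Ugt1a9 was called under all 22, Slco1a4 under 21 (and in DKO under 12), the 8 macrophage genes each under 18 to 20 and the 5 acute-phase genes each under 12 to 21. None of the reversed values was called in the reported fit, and the cause was not tested.

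Counts of genes called moved by over 1.5 times as follows. For genotype averaged (13), 8 were called without scaling, 21 with equal totals, 7 with 0.1 added and 6 at 5 FPKM. For diet in DKO/hA1 (152), 69 were called with equal totals and 74 at 5 FPKM. For the interaction (2), 1 was called with equal totals and 8 without the filter. For genotype on chow (9), 3 were called with 0.1 added, 27 without the filter and 4 at 5 FPKM. For diet in DKO (13), 7 were called at 5 FPKM. With the replicate block, 292 genes were called for averaged diet (456), 84 for diet in DKO/hA1, 6 for genotype averaged and 1 for the interaction. The replicate block changed no diet call of a member, and with it Dio1 had 1.24 for averaged diet. With the code block, 39 were called for averaged diet, 18 for diet in DKO/hA1 and 28 for genotype on chow. Without the 2 libraries highest in neutrophil markers, 243 were called for averaged diet, 31 for diet in DKO, 54 for diet in DKO/hA1, 8 for genotype averaged and 42 for genotype on chow. Leaving out 1 library each gave 33 (without DKO/hA1 chow replicate 2) to 535 for averaged diet, 6 (without the same library) to 189 for diet in DKO/hA1, 8 to 66 (without DKO/hA1 Western diet replicate 3) for diet in DKO, 2 to 13 for genotype averaged, 2 to 33 for genotype on chow, 0 for genotype on Western diet and 1 to 8 for the interaction. A count test was not run, since the table holds no counts. Depth in reads is unknown, and 2 DKO/hA1 chow libraries limit every comparison that uses them.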
